A study of Drosophila melanogaster with 16 samples.

Results

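The genes described here encode subunits of the mitochondrial respiratory chain and of ATP synthase in the fruit fly Drosophila melanogaster. They were chosen by symbol: a gene was taken if its annotated symbol began with ND- (complex I), UQCR- (complex III), COX and a digit (complex IV) or ATPsyn (complex V, the ATP synthase). The rule took 66 of the 11982 genes that had a probe set of their own on the array: 32 in complex I, 6 in complex III, 14 in complex IV and 14 in complex V. A gene with several probe sets was read from the one with the highest mean over the 16 arrays, which mattered for 6 genes. The genes lie on all major chromosome arms, with 15 on 2L, 15 on 3L, 13 on 3R, 12 on 2R, 10 on X and 1 on chromosome 4. No mitochondrially encoded subunit had a probe set of its own, so every value below is for a nuclear gene.

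RNA was measured in wing imaginal discs, the larval epithelia that form the adult wing, and in brain complexes, all from 3rd instar larvae kept at 25°C. The lgl group carried lgl27S3 over lglE2S31 (lgl-null) and was collected 9 days after egg deposition, with 3 arrays of discs and 3 of brains. The scrib group carried scrib1 over scrib2 and was also collected at day 9, with 3 arrays per tissue. Wild-type larvae were collected at day 5, with 2 arrays per tissue. Lgl and Scribble are cell polarity proteins of epithelia and neural stem cells, and the labels describe the mutant tissues as tumours and the wild type as free of them. The mutants were older than the wild type, so genotype and age cannot be told apart in any comparison with wild type, whereas lgl and scrib were compared at one age. Nothing in the labels says that the replicates of a group were separate pools of larvae, so p-values measure the spread between these arrays, which may be technical.

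Complex I takes electrons from NADH, complex III passes them to cytochrome c, and complex IV hands them to oxygen. The protons pumped on the way drive the rotor of the ATP synthase, which makes ATP. Each complex has catalytic or core subunits and small accessory subunits, and the nuclear genes for most of them are expressed in nearly all tissues. The roles given below for accessory subunits are those of their mammalian counterparts. In flies many of these genes also have a paralogue with an L at the end of the symbol, and such paralogues are known mainly from the testis.

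Values are log2 signals, on a scale whose floor was 2.21 and whose highest value on any array was 15.94. A probe set was tested if it reached 4 on at least 2 arrays, which 47 of the 66 genes did: 25 in complex I, 4 in complex III, 7 in complex IV and 11 in complex V. Signals of different probe sets are not on a common scale of abundance, so each gene is compared only with itself. Of the 48 genes without the L, 46 passed, and the exceptions were ND-B12, whose mean was 3.25, and ND-B8, which averaged 2.21. Of the 18 paralogues only ATPsynepsilonL passed. The other 17 never exceeded 3.14 on any array, the value of COX7AL, and 83.8% of their values lay at the floor. They were ND-20L, ND-24L, ND-51L1, ND-51L2, ND-B14.5AL, UQCR-11L, UQCR-14L, COX4L, COX5BL, COX6AL, COX6AL2, COX6CL, COX7AL, COX7AL2, ATPsynCF6L, ATPsynGL and ATPsynbetaL. Of 22 marker genes of testis and male germline, 1 or 2 reached 4 on each array.

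The passing genes without the L were bright on all 16 arrays except UQCR-11, a small subunit of complex III whose mean was 4.87. By mean over the 16 arrays, complex I genes ranged between 9.25 for ND-75 and 13.93 for ND-MLRQ, and complex IV genes between 12.37 for COX5B and 13.07 for COX5A. Complex V genes without the L lay between 12.4 for ATPsyndelta and 13.88 for ATPsynF, and UQCR-6.4 was the brightest in complex III at 12.83. These are levels of single probe sets, given to show that most of the genes were read far above the floor.

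The gene l(2)gl itself read 5.47, 2.99 and 2.42 in lgl discs, against 10.51 and 10.72 in wild-type discs, and 2.21, 2.82 and 2.21 in lgl brains, against 9.89 and 8.93 in wild-type brains. Only lgl disc replicate 1 showed a signal above 4 among the lgl arrays. The brightest of 5 probe sets of scrib was not called in scrib discs (log2 difference -0.15, adjusted p = 0.81) or brains (-0.04, 0.95), so its RNA level does not check those labels.

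The pair of wild-type replicates in each tissue stood apart for these genes. In wild-type discs, replicate 1 was above replicate 2 for 39 of the 47 genes, with a median difference of 0.40 and a range of -0.53 to 0.89. In wild-type brains it was above replicate 2 for 37 of the 47, with a median of 0.42 and a range of -0.8 to 1.05. Over all 8819 probe sets tested the medians were -0.02 in discs and 0.02 in brains. The gap was the same way in both tissues for 34 genes, which were higher in replicate 1, and for 5 that were lower in it: ND-39, ND-75, COX4, ATPsynB and ATPsyngamma. Across all probe sets 34.7% were higher and 35.4% lower in replicate 1 of both tissues. The gap was not particular to these genes. The median of 69 mitochondrial ribosomal protein genes was 10.08 and 9.41 in wild-type disc replicates 1 and 2, and 10.03 and 9.48 in brains. For 12 respiratory chain assembly factors it was 9.18 and 8.81 in discs and 9.34 and 8.78 in brains. For 27 proteasome genes it was 12.01 and 11.93 in discs, and lower in replicate 1 in brains, at 11.73 and 11.98.

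Single genes among the 47 show the size of the gap. ND-PDSW, an accessory subunit of the membrane arm of complex I, was higher in replicate 1 by 0.73 in wild-type discs and by 0.88 in wild-type brains. ND-75, the largest subunit of complex I and part of its NADH-oxidising module, differed the other way, by -0.17 in discs and -0.80 in brains. ATPsynC, subunit c of the membrane rotor ring of the ATP synthase, hardly moved, by -0.04 in discs and 0.03 in brains. Across the 47 genes the disc and brain differences had a Pearson correlation of 0.56 and a Spearman correlation of 0.66, against a Pearson correlation of 0.43 over all probe sets. These are descriptions across genes that share arrays and are not independent replicates.

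**Figure D1:**
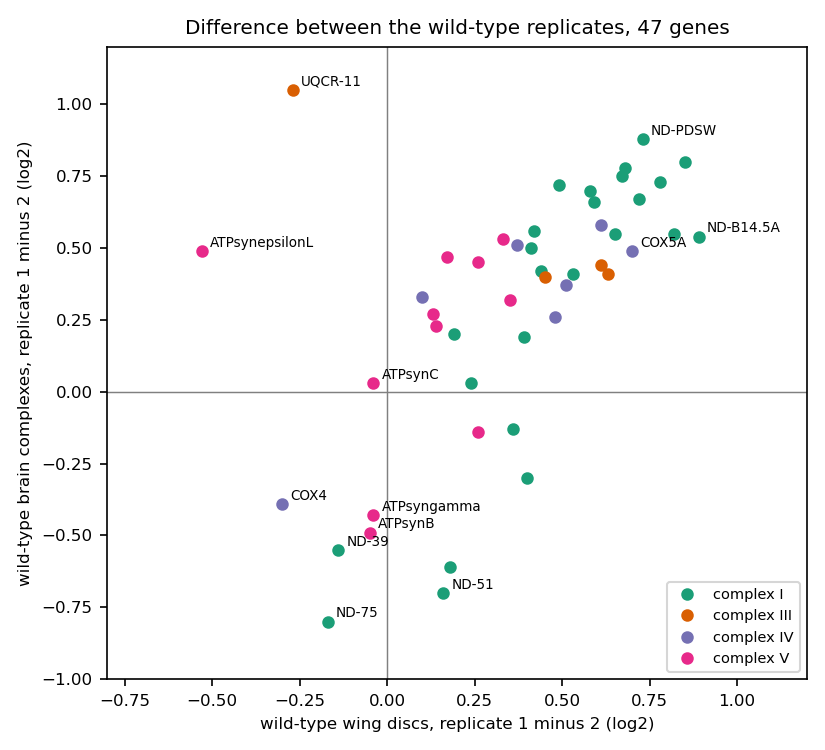
Each point is 1 of the 47 tested genes, with wild-type replicate 1 minus replicate 2 (log2) in wing discs on the x axis and in brain complexes on the y axis. Most points lie in the upper right, where 34 genes were higher in replicate 1 of both tissues, and the 5 genes at the lower left were lower in it in both.

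Marker genes of muscle and fat body were also higher in wild-type disc replicate 1 than in replicate 2, whereas those of salivary gland were lower in it. The summed signal of 11 muscle genes (log2) lay between 9.99 and 10.62 in lgl discs and between 9.44 and 9.88 in scrib discs, against 12.4 and 10.77 in wild-type discs replicates 1 and 2. Between 6 and 9 of the 11 reached 4 on a mutant disc array and 9 on each wild-type disc array, while Act88F stayed at or near the floor on all 16. In brains the muscle sum was 8.54 to 8.88 in lgl, 8.57 to 9.66 in scrib, and 10.01 and 9.11 in wild-type replicates 1 and 2. Among 7 fat body genes the sum was 10.05 to 10.78 in lgl discs and 9.59 to 9.92 in scrib discs, against 15.66 and 12.74 in wild-type discs replicates 1 and 2. The fat body sum in brains was 12.61 to 14.39 in lgl and 12.39 to 14.72 in scrib, against 13.49 and 12.52 in wild type, with no order by genotype. Among 12 salivary gland genes the disc sum was 6.13 to 6.43 in lgl and 6.73 to 8.9 in scrib, against 9.72 and 13.27 in wild-type discs replicates 1 and 2. The part of these tissues in the results below was not tested. Each comparison with wild type is therefore given with both wild-type arrays and without each of them.

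The median over the 47 genes summarises each array. It was 11.44, 11.45 and 11.41 in lgl discs, 11.89, 11.84 and 12.21 in scrib discs, and 12.01 and 11.28 in wild-type discs. In brains it was 11.55, 11.41 and 11.76 for lgl, 11.64, 12.15 and 11.75 for scrib, and 12.29 and 11.59 for wild type. The lgl discs were close together and below every scrib disc array. Wild-type disc replicate 2 was below every mutant disc and replicate 1 above all of them except scrib replicate 3. Wild-type brain replicate 1 was the highest brain array, while replicate 2 lay among the mutants. The pooled standard deviation of the 47 genes within a group was 0.09 in lgl discs, 0.15 in scrib discs and 0.34 in wild-type discs, and 0.22, 0.21 and 0.38 in lgl, scrib and wild-type brains.

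**Figure D2:**
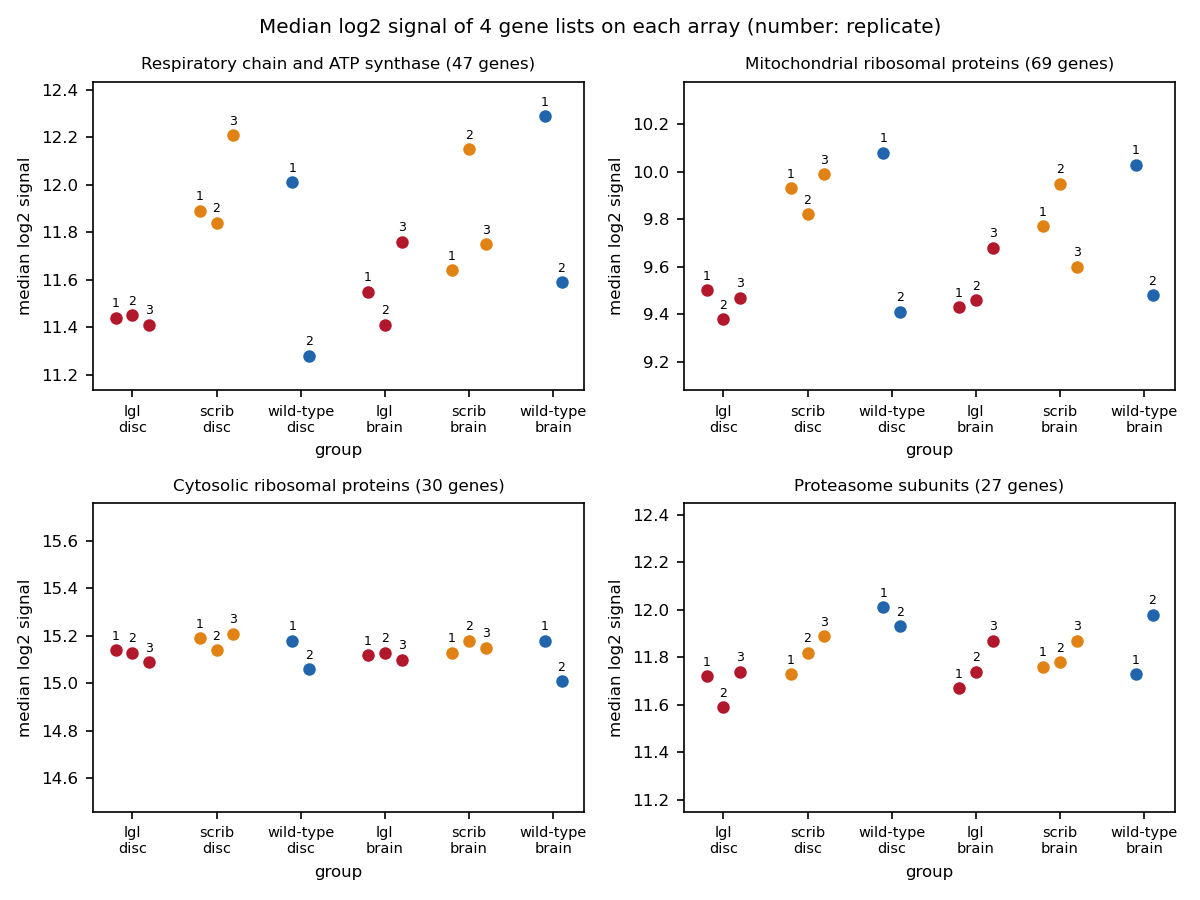
Each point is the median log2 signal of a gene list on 1 array, by tissue and genotype, for the 47 respiratory chain and ATP synthase genes, 69 mitochondrial ribosomal protein genes, 30 cytosolic ribosomal protein genes and 27 proteasome genes. For the first list the 3 lgl discs lie at 11.41 to 11.45, below the 3 scrib discs at 11.84 to 12.21, and the wild-type replicates lie at 12.01 and 11.28.

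**Figure D3:**
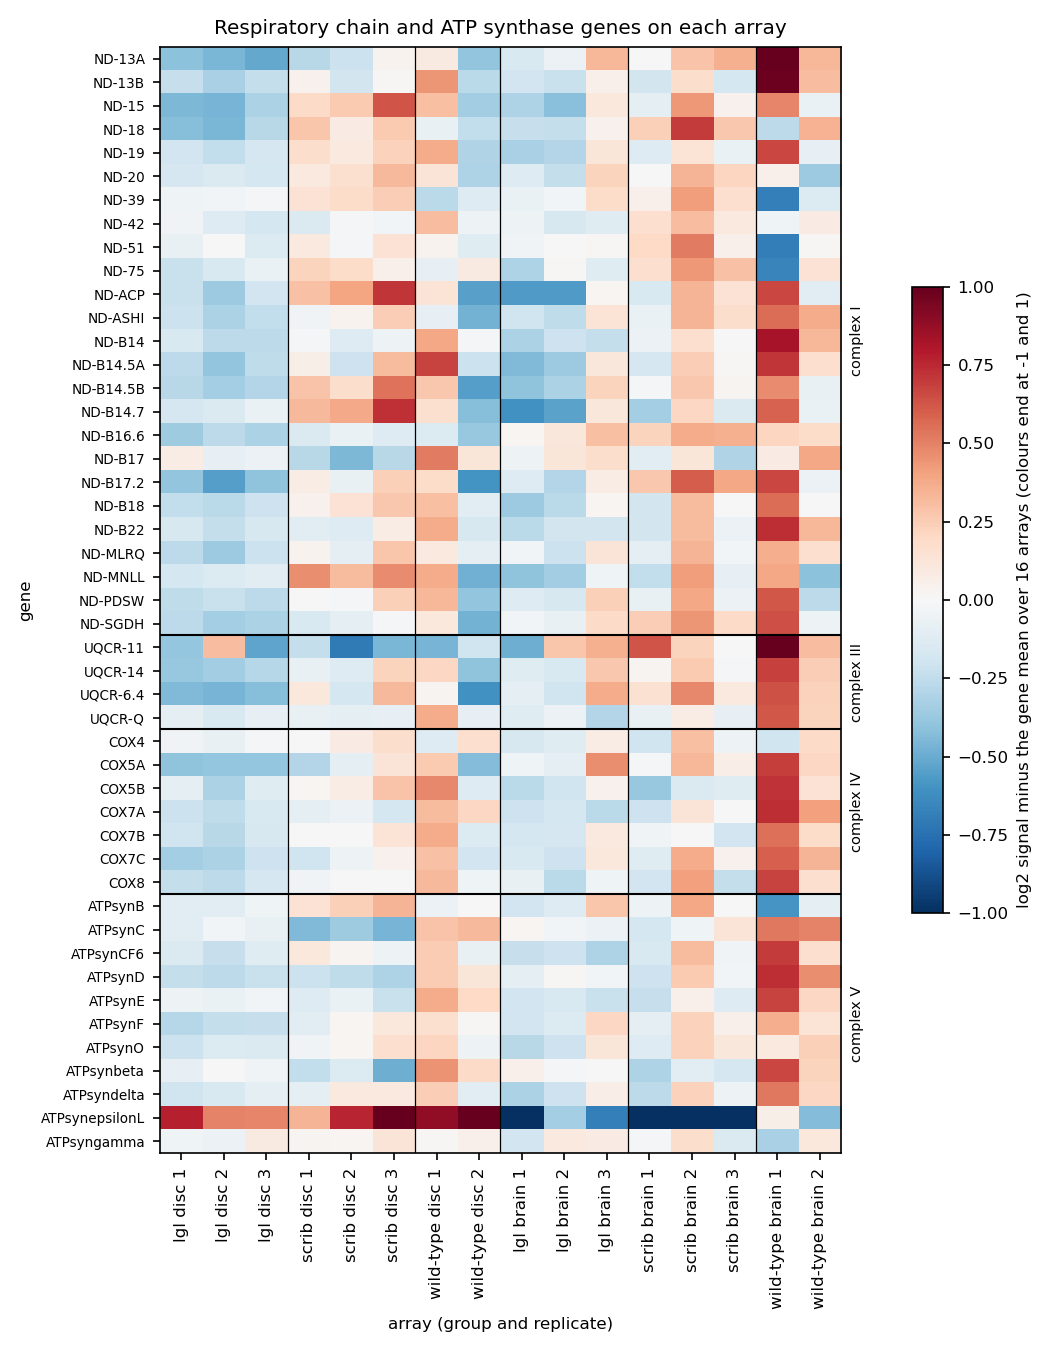
Rows are the 47 genes by complex and columns the 16 arrays by tissue and genotype. Colour is the log2 signal minus the gene's mean over the 16 arrays, with the colour scale ending at -1 and 1. Replicate 1 of the wild type is high in most rows of both tissues, and the lgl discs are low in most rows of complex I.

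In lgl discs the genes lay a little below wild-type discs, and the fit called 2 of 47 lower and none higher (limma, Benjamini-Hochberg adjusted p under 0.05 over all 8819 probe sets). Of all probe sets tested, 18.1% were called in this comparison (6.13% lower and 12.0% higher), so the count of calls was below the background. The median log2 difference of the 47 was -0.25, against 0.01 over all probe sets. It was below 0 for 43 of the 47, against 48.4% of all probe sets. The arrays of the groups did not overlap, with lgl lower, for 21 of 47 (44.7%), against 22.4% of all probe sets. They did not overlap with lgl higher for 1 of 47, against 26.0% of all probe sets. In whole tissue, fewer cells of a type and less RNA per cell cannot be told apart, here and in every comparison below.

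COX7A, a nuclear-encoded subunit of complex IV, read 12.65, 12.60 and 12.71 in lgl discs, against 13.17 and 13.07 in wild-type discs. The groups did not overlap. It fell 1.38-fold, a log2 difference of -0.47 ± 0.14 (SE, adjusted p = 0.034, limma). ATPsynC read 13.39, 13.47 and 13.43 in lgl discs, against 13.79 and 13.82 in wild-type discs, again with no overlap. Its fall was 1.3-fold, a log2 difference of -0.37 ± 0.12 (adjusted p = 0.049).

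Both calls were close to the threshold. The COX7A call was lost without any one of 6 arrays, among them each wild-type disc array (adjusted p = 0.16 without replicate 1 and 0.06 without replicate 2), the 3 lgl disc arrays (0.085, 0.099 and 0.063) and lgl brain replicate 1 (0.05 after rounding). The ATPsynC call was lost without any one of 12 arrays, with adjusted p between 0.058 and 0.13. Without wild-type disc replicate 1 the median difference of the genes was -0.06. Without replicate 2 it was -0.47. All 11 complex V genes and all 7 complex IV genes were below 0, with medians of -0.34 and -0.33, as were 22 of 25 in complex I, with a median of -0.23. Array against array, the 3 lgl discs had medians of -0.45, -0.49 and -0.46 relative to wild-type replicate 1 and of -0.05, -0.09 and -0.01 relative to replicate 2. The eIF-4a log2 ratio of 3′ to 5′ probe sets checks RNA length. It was 2.14 to 2.26 in lgl discs, against 2.35 and 2.29 in wild-type discs. For GAPDH it was 0.58 to 0.67, against 0.49 and 0.52, and for actin 0.73 to 0.98, against 0.75 and 0.93. The summed signal of trachea markers was 14.4 to 14.53, against 12.98 and 13.28 (log2). That of neuron markers was 10.13 to 10.85, against 9.66 and 8.58, whereas hemocyte markers overlapped. The part of these measures was not tested.

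In scrib discs the median difference of the genes from the mean of the 2 wild-type discs was 0.0. It was 0.0 over all probe sets, and the fit called 4 genes lower and none higher. The differences split evenly, with 24 of 47 below 0 (49.6% of all probe sets). Array against array, the 3 scrib discs had medians of -0.26, -0.23 and -0.05 relative to wild-type replicate 1. Relative to replicate 2 these were 0.14, 0.14 and 0.28. Arrays did not overlap for 6 genes with scrib lower and for 6 with scrib higher, against 22.6% and 25.2% of all probe sets. Of all probe sets 23.2% were called, 10.6% lower and 12.6% higher. The share called lower, 4 of 47, was thus below the background. ATP synthase genes made up 3 of the 4 calls. ATPsynC read 13.06, 13.14 and 13.03 in scrib discs, against 13.79 and 13.82 in wild-type discs. Every scrib array was below both wild-type arrays. It fell 1.65-fold, a log2 difference of -0.73 ± 0.12 (adjusted p = 0.0011). This call held under all 27 alternative settings, with adjusted p up to 0.031. The setting of other probe sets could not change it, as the gene has 1 probe set.

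ATPsynbeta, the catalytic subunit that makes ATP, read 13.60, 13.71 and 13.36 in scrib discs, against 14.29 and 14.03 in wild-type discs. The groups did not overlap. It fell 1.52-fold (log2 difference -0.61 ± 0.16, adjusted p = 0.015), and its other probe set gave -0.76 ± 0.2 (adjusted p = 0.014). ND-B17, an accessory subunit of the membrane arm of complex I, read 10.53, 10.35 and 10.52 in scrib discs, against 11.33 and 10.93 in wild-type discs, with no overlap. Its log2 difference was -0.66 ± 0.17 (1.58-fold, adjusted p = 0.014), and its other probe set gave -0.57 ± 0.19 (adjusted p = 0.048). ATPsynD, a subunit of the peripheral stalk that holds the catalytic head in place, read 12.48, 12.44 and 12.38 in scrib discs, against 12.94 and 12.81 in wild-type discs. All scrib arrays were lower. Its log2 difference was -0.44 ± 0.15 (1.36-fold, adjusted p = 0.046).

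Leaving out wild-type disc replicate 1 ended the calls of ATPsynbeta, at an adjusted p of 0.11, and ND-B17, at 0.13. ATPsynbeta also missed the threshold without scrib disc replicate 3 (0.058). The ATPsynD call was lost without any one of 12 arrays, with adjusted p up to 0.18. By complex, 9 of 11 complex V genes were below 0, with a median of -0.08, whereas 18 of 25 complex I genes were above 0, with a median of 0.13. The highest difference was 0.67 for ND-ACP, the mitochondrial acyl carrier protein, which read 11.89, 12.00 and 12.32 in scrib discs, against 11.74 and 11.06 in wild-type discs. Every scrib disc was above both wild-type discs, but the difference was not called, and the 2 other probe sets of the gene gave 0.32 and 0.21 with overlapping arrays. Without wild-type disc replicate 1 the median difference of the genes was 0.2. Without replicate 2 it was -0.19. The log2 ratio of the 3′ to the 5′ probe set of a control gene is a check of RNA length. For eIF-4a it was 1.65 to 2.0 in scrib discs, against 2.35 and 2.29 in wild-type discs. For GAPDH it was 0.31 to 0.37, against 0.49 and 0.52. For actin it was 0.75 to 1.07, against 0.75 and 0.93, so the arrays overlapped. The part of these ratios in the comparison was not tested.

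In brain complexes of lgl larvae 11 of 47 genes fell and none rose. Of all probe sets 25.3% were called, 11.3% lower and 14.0% higher, so the share called lower, 11 of 47, was above the background of 11.3%. The median difference was -0.45, against 0.04 over all probe sets, and 41 of 47 lay below 0. The arrays did not overlap, with lgl lower, for 19 of 47 (40.4%), against 21.9% of all probe sets.

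ND-B14, an accessory subunit of the matrix arm of complex I, read 10.13, 10.24 and 10.21 in lgl brains, against 11.27 and 10.77 in wild-type brains. The lgl arrays were all lower. It fell 1.78-fold (log2 difference -0.83 ± 0.17, adjusted p = 0.0036). COX7A read 12.65, 12.68 and 12.59 in lgl brains, against 13.60 and 13.27 in wild-type brains, also with no overlap. Its log2 difference was -0.79 ± 0.14 (1.73-fold, adjusted p = 0.0016). ND-13B, another accessory subunit of the matrix arm, read 9.47, 9.44 and 9.72 in lgl brains, against 10.65 and 9.97 in wild-type brains. It was lower on each lgl array (1.7-fold, log2 difference -0.77 ± 0.23, adjusted p = 0.03). ND-B22, an accessory subunit of the membrane arm, read 11.56, 11.65 and 11.64 in lgl brains, against 12.57 and 12.15 in wild-type brains. The groups did not overlap, and the log2 difference was -0.75 ± 0.19 (1.68-fold, adjusted p = 0.014).

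The other calls were spread over 4 complexes. In the ATP synthase they were ATPsynCF6 and ATPsynD of the peripheral stalk (log2 differences -0.68 and -0.64), ATPsynE, a small subunit of the membrane part (-0.63), and ATPsynC (-0.53). ATPsynC read 13.52, 13.47 and 13.44 in lgl brains, against 14.03 and 13.99 in wild-type brains. Every lgl array was well below both wild-type arrays (adjusted p = 0.0074). UQCR-Q, a small subunit of complex III (-0.58), ND-ASHI of complex I (-0.57) and COX7C of complex IV (-0.55) completed the list, with adjusted p of 0.02, 0.033 and 0.048.

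Which wild-type array was used decided most of these calls. Without wild-type brain replicate 1 the median difference was -0.26. The calls of ND-B14, COX7A and ATPsynC held there. Those of ND-13B, ND-B22, ATPsynCF6, ATPsynD, ATPsynE, UQCR-Q, ND-ASHI and COX7C were lost. Without replicate 2 the median difference was -0.67. The ND-13B and ND-ASHI calls were also lost without lgl brain replicate 1 or 2 (adjusted p 0.081 and 0.084 for ND-13B, 0.097 and 0.1 for ND-ASHI), the UQCR-Q call without lgl brain replicate 3 (0.058), and the COX7C call without any one of 10 arrays. With a fit to the arrays of the groups compared alone none of the 11 was called (background 6.67%), nor with array weights (background 2.88%).

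Markers of several cell types and tissues moved with the brain groups. Of 14 neuron markers tested, 7 were lower in lgl brains and 9 in scrib brains, and none was higher. The summed signal of the 15 on the array was 13.11 to 13.38 in lgl brains and 12.66 to 12.84 in scrib brains, against 14.44 and 14.27 in wild-type brains (log2). Between 12 and 13 of the 15 reached 4 on a mutant brain array and 14 on each wild-type array, and para stayed near the floor throughout. Of 10 neuroblast markers, 7 were higher in lgl brains and 6 in scrib brains. Of 6 ring gland markers tested, 4 were lower in lgl brains and 3 in scrib brains, with a summed signal over the 8 on the array of 9.06 to 9.46 in lgl and 9.59 to 9.89 in scrib, against 12.31 and 11.82 in wild type. Of 4 trachea markers tested, 3 were higher in lgl brains and 2 in scrib brains, and the sum over 5 was 11.01 to 11.52 in lgl and 9.97 to 11.25 in scrib, against 8.3 and 9.71 in wild type. Of 15 hemocyte markers, 5 were higher in lgl brains and 4 in scrib brains, at a sum of 12.37 to 12.95 and 12.36 to 12.91, against 11.63 and 11.72 in wild type. The eIF-4a ratio of 3′ to 5′ probe sets was 1.98 to 2.37 in lgl brains and 1.76 to 1.85 in scrib brains. In wild-type brains it was 2.32 and 2.7. The actin ratio was 0.68 to 0.9 in lgl and 0.9 to 1.06 in scrib brains, against 0.98 and 0.99. That of GAPDH was 0.48 to 0.76 in lgl and 0.45 to 0.87 in scrib brains, against 0.56 and 0.66. For actin and GAPDH the scrib arrays overlapped those of wild type. The part of these markers and ratios in the brain results, including those of scrib brains that follow, was not tested.

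In scrib brains 10 genes fell and 3 rose. Of all probe sets 34.8% were called, 15.1% lower and 19.7% higher. The share called lower, 10 of 47, was thus above the background and the share called higher, 3 of 47, below it. The median difference was -0.32 against 0.07 over all probe sets, and 35 of 47 lay below 0 (45.4% of all probe sets). Arrays did not overlap with scrib lower for 13 of 47 (27.7%, against 22.6% of all probe sets) and with scrib higher for 6 (12.8%, against 28.1%).

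The 3 genes that rose all belong to complex I. ND-39, an accessory subunit beside the quinone site, read 11.29, 11.66 and 11.41 in scrib brains, against 10.56 and 11.11 in wild-type brains. The groups did not overlap (1.54-fold, log2 difference 0.62 ± 0.17, adjusted p = 0.013). ND-51, the core subunit that binds FMN and oxidises NADH, read 11.30, 11.61 and 11.15 in scrib brains, against 10.41 and 11.11 in wild-type brains. Here the lowest scrib array was only just above wild-type replicate 2 (1.51-fold, log2 difference 0.60 ± 0.19, adjusted p = 0.029). ND-75 read 9.42, 9.69 and 9.55 in scrib brains, against 8.60 and 9.40 in wild-type brains, again with the higher wild-type array close below (1.47-fold, log2 difference 0.55 ± 0.2, adjusted p = 0.049).

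In all 3 genes wild-type brain replicate 1 was the low array, and without it the differences were 0.35, 0.24 and 0.15 with adjusted p of 0.14 for ND-39, 0.33 for ND-51 and 0.54 for ND-75. The ND-51 call was also lost without scrib brain replicate 1 (0.05 after rounding) or 2 (0.098), and the ND-75 call without any one of 14 arrays. In lgl brains ND-39 read 11.17, 11.22 and 11.43, ND-51 read 11.06, 11.10 and 11.11, and ND-75 read 8.95, 9.27 and 9.13. None of the 3 was called against wild type there.

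Among the genes that fell in scrib brains, ATPsynepsilonL, the paralogue of a central stalk subunit, read 3.59, 3.41 and 3.49, against 4.73 and 4.25 in wild-type brains. Every scrib array was below 4, so the fall was at least 1.41-fold (log2 difference -0.99 ± 0.32, adjusted p = 0.028). ND-13B read 9.48, 9.85 and 9.49 in scrib brains, against 10.65 and 9.97 in wild-type brains. All scrib arrays were lower (1.63-fold, log2 difference -0.71 ± 0.23, adjusted p = 0.032). COX5B, a zinc-binding subunit of complex IV, read 11.99, 12.22 and 12.24 in scrib brains, against 13.09 and 12.51 in wild-type brains, with no overlap (1.57-fold, log2 difference -0.65 ± 0.21, adjusted p = 0.03). ATPsynbeta read 13.53, 13.73 and 13.68 in scrib brains, against 14.51 and 14.06 in wild-type brains. It fell 1.56-fold with no overlap (log2 difference -0.64 ± 0.16, adjusted p = 0.0079).

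Smaller falls in scrib brains were those of COX7A (-0.60, adjusted p = 0.0052), ATPsynD (-0.59, 0.0081), ATPsynE (-0.54, 0.014), ND-B14 (-0.54, 0.023), ATPsynC (-0.54, 0.0042) and UQCR-Q (-0.45, 0.045), all as log2 differences. ATPsynC read 13.32, 13.46 and 13.63 in scrib brains, against 14.03 and 13.99 in wild-type brains. The highest scrib array was still below both wild-type arrays. Without wild-type brain replicate 1 the median difference was -0.1. ATPsynC and COX7A remained called there, whereas ATPsynepsilonL, ND-13B, COX5B, ATPsynbeta, ATPsynD, ATPsynE, ND-B14 and UQCR-Q did not. Without replicate 2 the median difference was -0.53. Some calls were also lost without 1 scrib brain array: ATPsynepsilonL without replicate 2 or 3 (0.067 and 0.058), COX5B without replicate 1 or 2 (0.089 and 0.051), ND-13B and ND-B14 without replicate 1 or 3 (0.085 and 0.083 for ND-13B, 0.066 and 0.055 for ND-B14). The UQCR-Q call was lost without any one of 12 arrays.

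**Figure D4:**
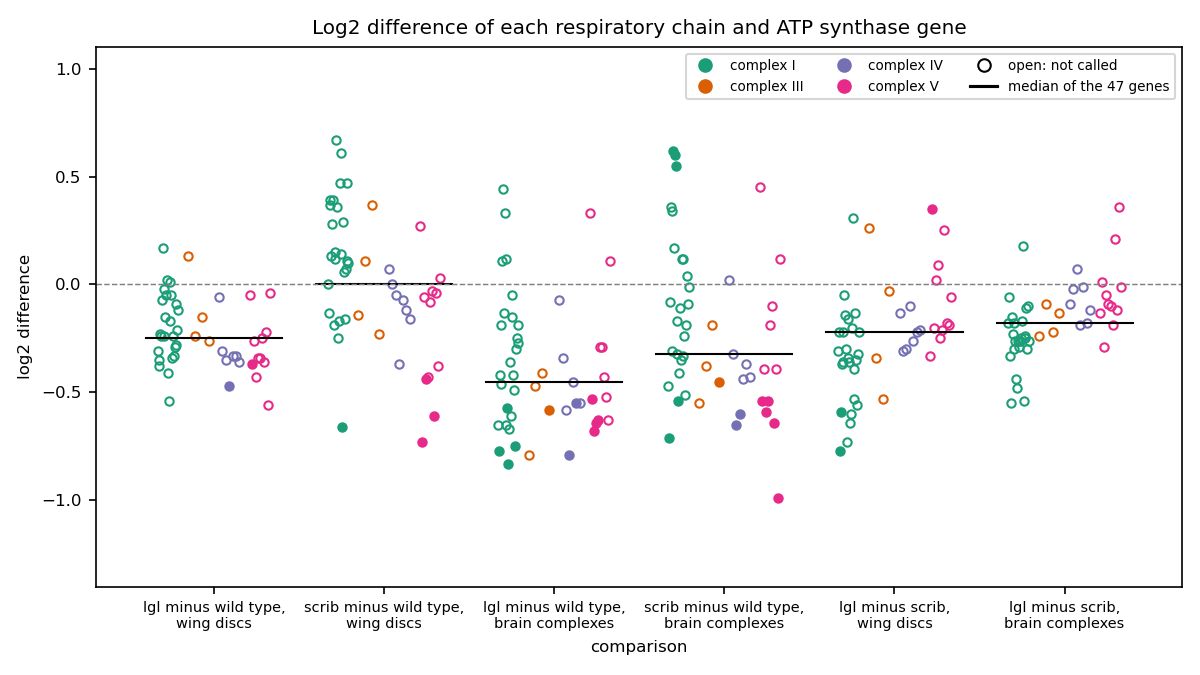
Each point is the log2 difference of 1 of the 47 genes in 1 of 6 comparisons, by complex. Filled points passed the adjusted p threshold and the line is the median of the 47. Medians are -0.25 and -0.45 for lgl minus wild type in discs and brains, 0.0 and -0.32 for scrib minus wild type, and -0.22 and -0.18 for lgl minus scrib.

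Set side by side, the log2 differences of a gene from wild type share the wild-type arrays of a tissue and are not independent. For ATPsynC they were -0.37 and -0.73 in lgl and scrib discs and -0.53 and -0.54 in lgl and scrib brains, each of them called. For COX7A they were -0.47, -0.37, -0.79 and -0.60 in the same order, of which the scrib disc difference was not called (adjusted p = 0.073). For ATPsynD they were -0.43, -0.44, -0.64 and -0.59, of which the lgl disc difference was not called (adjusted p = 0.062). The difference between the disc and the brain effect was tested for all genes. None of the 47 was called for lgl (1 at an unadjusted p under 0.05, lowest adjusted p 0.15, background 13.5%) or for scrib (2 at an unadjusted p under 0.05, lowest adjusted p 0.11, background 11.3%). For ATPsynC that difference was 0.16 for lgl (adjusted p = 0.6).

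**Figure D5:**
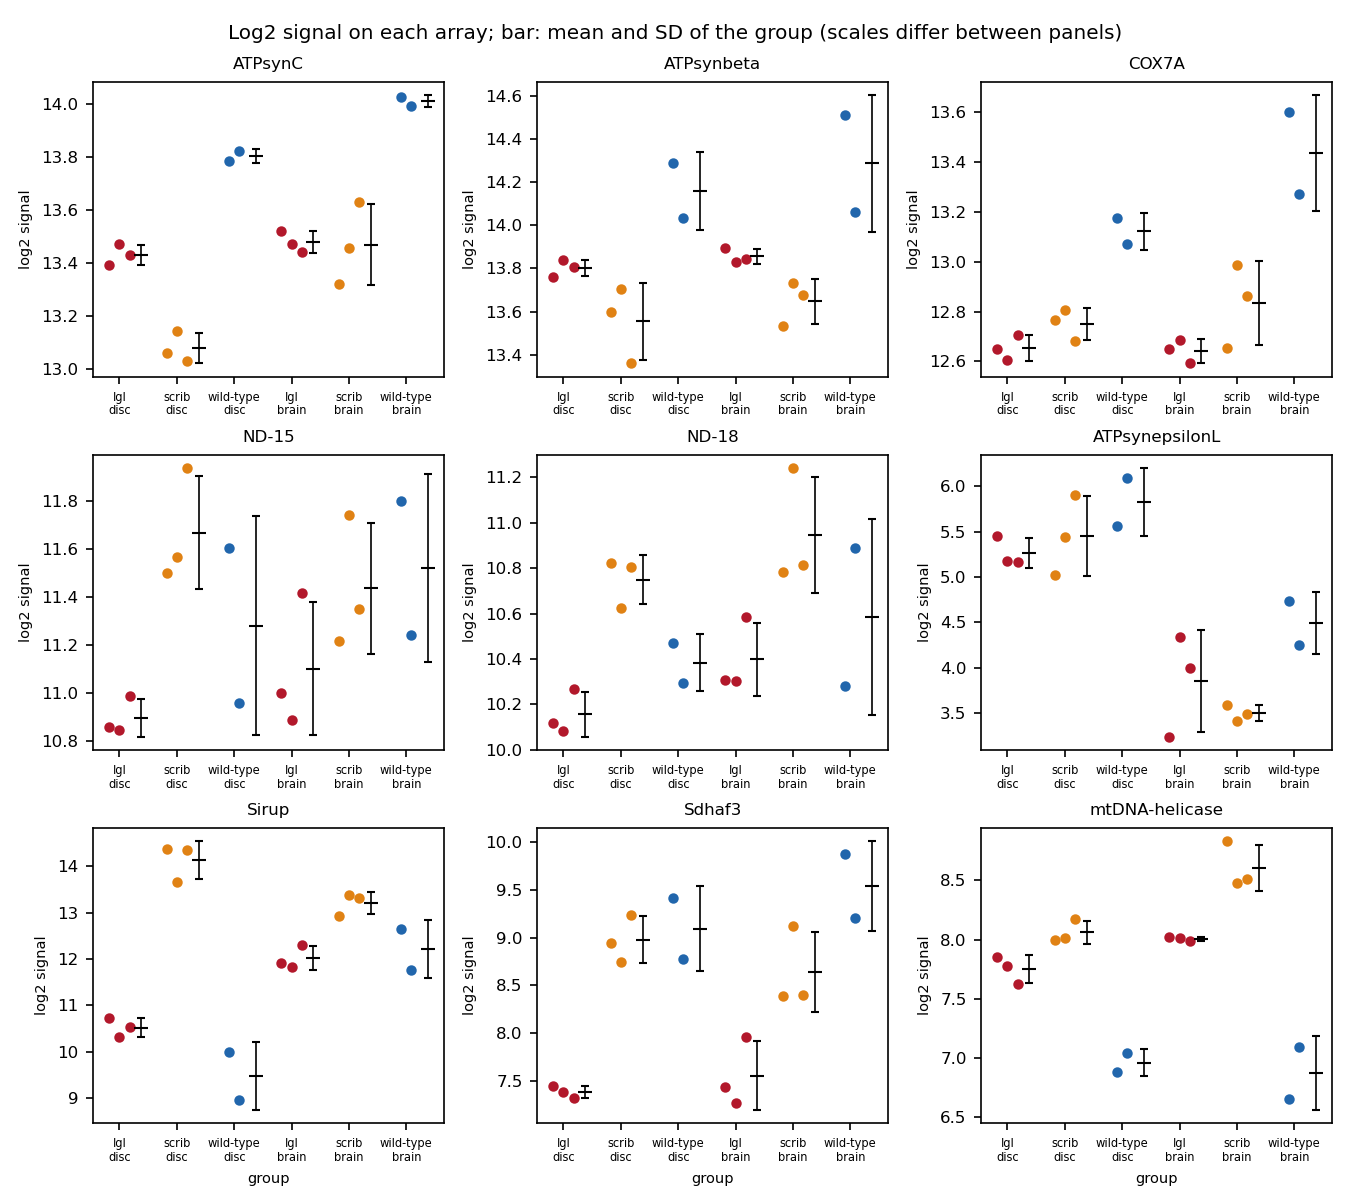
Log2 signal on each of the 16 arrays with the mean and standard deviation of each group, for ATPsynC, ATPsynbeta, COX7A, ND-15, ND-18, ATPsynepsilonL, Sirup, Sdhaf3 and mtDNA-helicase, each on its own y axis. ATPsynC lies lower in all 4 mutant groups than in wild type, and Sirup is highest in scrib discs, at 13.65 to 14.38.

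The log2 differences and overlap counts of lgl against scrib used no wild-type array and 1 age. Their SEs, adjusted p and calls came from the fit shared by all groups, so the spread of the wild-type arrays entered them. The pooled standard deviation of the 47 genes was 0.34 in wild-type discs, against 0.09 in lgl and 0.15 in scrib discs. In discs most of the genes lay below their scrib level in lgl: 41 of 47 had a difference below 0 (48.7% of all probe sets) and the median was -0.22, against 0.01 over all probe sets. The arrays did not overlap, with lgl lower, for 34 of 47 (72.3%), against 26.7% of all probe sets, and with lgl higher for 3, against 27.8%. In complex I, 24 of 25 were below 0 and 22 did not overlap, with a median of -0.34. In complex IV all 7 were below 0 and 6 did not overlap. In complex V 7 of 11 were below 0, with a median of -0.18. The fit called 2 genes lower and 1 higher, against a background of 20.5% (8.54% lower and 11.9% higher), so the share called, 3 of 47, was below the background.

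ND-15, an accessory subunit of complex I on its intermembrane side, read 10.86, 10.85 and 10.99 in lgl discs, against 11.50, 11.56 and 11.94 in scrib discs. The groups were well apart (1.7-fold, log2 difference -0.77 ± 0.22, adjusted p = 0.029). ND-18, an accessory subunit of the NADH-oxidising module, read 10.12, 10.08 and 10.27 in lgl discs, against 10.82, 10.62 and 10.80 in scrib discs. All lgl arrays were lower (1.51-fold, log2 difference -0.59 ± 0.18, adjusted p = 0.032). ATPsynC went the other way. Its values of 13.39, 13.47 and 13.43 in lgl discs were all above the 13.06, 13.14 and 13.03 of scrib discs (1.28-fold, log2 difference 0.35 ± 0.11, adjusted p = 0.037).

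These 3 calls depended on single arrays. Each of ND-15 and ND-18 was lost without any one of 5 arrays, with adjusted p up to 0.13 for ND-15 and up to 0.1 for ND-18, and ATPsynC without any one of 8, with adjusted p up to 0.12. In all of these the direction was kept. With only the 6 disc arrays of the mutants in the fit 18 genes were lower and 2 higher, against a background of 16.7% lower and 17.1% higher. With array weights by group, 14 were lower and 2 higher, against 19.1% and 20.9%.

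Several measures moved with this comparison, and their part in it was not tested. Of 69 mitochondrial ribosomal protein genes, 67 were below 0 in lgl discs relative to scrib discs, 58 did not overlap, 10 were called lower and none higher, and the median was -0.42. Among 30 cytosolic ribosomal protein genes 16 did not overlap with lgl lower, 2 were called lower, and the median was -0.07. Among 27 proteasome genes 2 were called higher and none lower, with a median of -0.03. The 15 hemocyte markers had a summed signal of 13.42 to 13.68 in lgl discs, against 12.55 to 12.75 in scrib discs (log2), and 11 of them were called higher. Of 14 neuron markers tested 8 were called higher in lgl discs. The log2 ratio of the 3′ to the 5′ probe set of eIF-4a was 2.14 to 2.26 in lgl discs, against 1.65 to 2.0 in scrib discs. That of GAPDH was 0.58 to 0.67, against 0.31 to 0.37. For actin it was 0.73 to 0.98, against 0.75 to 1.07, with overlap. The summed signal of 5 trachea markers was 14.4 to 14.53 in lgl discs, against 13.49 to 13.8 in scrib discs, with none called.

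In brains the same comparison gave fewer calls and fewer genes with lgl lower without overlap. Whether the difference between lgl and scrib itself differed between the tissues was not tested. The median was -0.18 against -0.04 over all probe sets, 42 of 47 were below 0 (55.1% of all probe sets), and lgl was lower without overlap for 8 of 47 (17.0%), below the 22.2% of all probe sets. No gene was called by limma, against a background of 11.5% (6.08% higher and 5.42% lower), with 4 genes at an unadjusted p under 0.05 and a lowest adjusted p of 0.065. The lowest difference was -0.55 for ND-18, which read 10.31, 10.30 and 10.59 in lgl brains, against 10.78, 11.24 and 10.82 in scrib brains, without overlap. ND-15 read 11.00, 10.89 and 11.42 in lgl brains, against 11.21, 11.74 and 11.35 in scrib brains, and its groups overlapped. With array weights 4 genes were called lower, against a background of 11.6% lower, and without both wild-type replicate 1 arrays 5 were called, against 24.6% of all probe sets.

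Discs and brains were compared within each genotype. In wild type, 17 of 17 wing disc markers were called higher and 14 of 14 neuron markers lower in discs than in brains, which accords with the labelled tissues. Of all probe sets 44.7% were called between discs and brains of lgl larvae, 46.2% for scrib and 42.8% for wild type. Few of the 47 genes were called: 1 higher and 1 lower in lgl discs (background 20.3% and 24.3%), 1 and 2 in scrib discs (20.1% and 26.0%), and 1 and 5 in wild-type discs (20.5% and 22.3%). Discs lay below brains without overlap for 13 genes among lgl samples, 7 among scrib and 11 among wild-type samples, against 37.8%, 35.9% and 28.2% of all probe sets. They lay above without overlap for 2, 3 and 2, against 30.0%, 27.2% and 27.6%. Differences below 0 numbered 34, 30 and 37 of 47, against 55.0%, 55.7% and 48.8% of all probe sets. The medians in that order were -0.07, -0.04 and -0.26, against -0.07, -0.09 and 0.01 over all probe sets.

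ATPsynepsilonL was higher in discs in every genotype. In lgl it read 5.46, 5.18 and 5.16 in discs, against 3.24, 4.34 and 4.0 in brains, at least 2.22-fold (log2 difference 1.41 ± 0.28, adjusted p = 0.0012). In scrib it read 5.02, 5.44 and 5.90 in discs, against 3.59, 3.41 and 3.49 in brains, at least 2.74-fold (log2 difference 1.96 ± 0.28, adjusted p = 7.6e-05). Wild-type discs read 5.56 and 6.09, against 4.73 and 4.25 in brains, 2.53-fold (log2 difference 1.34 ± 0.35, adjusted p = 0.0069). No disc array overlapped the brain arrays of its genotype. The calls in lgl and scrib held under every alternative setting run for them, whereas the wild-type call rested on disc replicate 2, without which the adjusted p was 0.062.

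ND-B16.6, an accessory subunit of complex I whose mammalian counterpart is GRIM-19, was lower in discs. In lgl it read 10.91, 11.00 and 10.95 in discs, against 11.29, 11.38 and 11.57 in brains (1.37-fold, log2 difference -0.46 ± 0.11, adjusted p = 0.0056). In scrib it read 11.12, 11.20 and 11.14 in discs, against 11.49, 11.63 and 11.63 in brains (1.35-fold, log2 difference -0.43 ± 0.11, adjusted p = 0.0077). Both held under all 27 alternatives, of which the setting of other probe sets could not change them, as the gene has 1 probe set. Wild-type discs read 11.13 and 10.89, against 11.48 and 11.45 in brains (1.37-fold, log2 difference -0.46 ± 0.14, adjusted p = 0.018). Leaving out wild-type disc replicate 2 ended that call, at an adjusted p of 0.12.

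The other calls between tissues were found in 1 genotype each. ATPsynC in scrib was lower in discs, at 13.06, 13.14 and 13.03, against 13.32, 13.46 and 13.63 in brains (1.31-fold, log2 difference -0.39 ± 0.11, adjusted p = 0.0095, and 0.051 without scrib brain replicate 3). In wild type, UQCR-11 read 4.40 and 4.67 in discs, against 6.23 and 5.18 in brains (2.25-fold, log2 difference -1.17 ± 0.39, adjusted p = 0.027). ND-13A, a zinc-binding accessory subunit of complex I, read 10.92 and 10.43 in wild-type discs, against 11.88 and 11.16 in brains (1.79-fold, log2 difference -0.84 ± 0.25, adjusted p = 0.016). None of these 3 overlapped between tissues.

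ND-ASHI read 10.90 and 10.51 in wild-type discs, against 11.54 and 11.35 in brains (1.67-fold, log2 difference -0.74 ± 0.19, adjusted p = 0.0072). UQCR-6.4, a small subunit of complex III, read 12.86 and 12.23 in wild-type discs, against 13.47 and 13.06 in brains (1.65-fold, log2 difference -0.72 ± 0.26, adjusted p = 0.037). Discs were below brains without overlap for both. These 4 wild-type calls all depended on single arrays. With disc replicate 2 left out the adjusted p was 0.053 for UQCR-11, 0.13 for ND-13A, 0.071 for ND-ASHI and 0.29 for UQCR-6.4, and without brain replicate 1 it was 0.24, 0.16 and 0.2 for UQCR-11, ND-13A and UQCR-6.4. UQCR-11 was also lost without disc replicate 1 (0.11) and UQCR-6.4 without lgl disc replicate 1 (0.051). The number of genes called in wild type was 14 without disc replicate 1 (background 40.7%), 0 without disc replicate 2 (38.9%), 3 without brain replicate 1 (40.5%) and 20 without brain replicate 2 (50.9%).

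The brightest gene of each complex was described whether or not it was called. ND-MLRQ, whose mammalian counterpart is now counted with complex IV, read 13.67, 13.57 and 13.71 in lgl discs, 13.97, 13.83 and 14.20 in scrib discs and 14.02 and 13.83 in wild-type discs. The highest lgl disc was below the lowest scrib disc. Its brain values were 13.90, 13.71 and 14.06 in lgl, 13.83, 14.27 and 13.90 in scrib and 14.29 and 14.09 in wild type. COX5A read 12.67, 12.69 and 12.68 in lgl discs, 12.78, 12.98 and 13.20 in scrib discs and 13.34 and 12.64 in wild-type discs, and ATPsynF read 13.60, 13.65 and 13.66, then 13.77, 13.90 and 13.99, then 14.04 and 13.90 in the same groups. For COX5A all mutant discs lay between the wild-type pair. UQCR-6.4 read 12.39, 12.37 and 12.41 in lgl discs and 12.94, 12.66 and 13.16 in scrib discs, against 12.86 and 12.23 in wild-type discs, and the lgl discs were all below the scrib discs (log2 difference -0.53). In brains it read 12.74, 12.63 and 13.20 in lgl and 12.98, 13.31 and 12.93 in scrib, against 13.47 and 13.06 in wild type. None of ND-MLRQ, COX5A, ATPsynF and UQCR-6.4 was called against wild type or between lgl and scrib, and the adjusted p of these differences ranged upward of 0.097, the value of UQCR-6.4 for lgl minus scrib in discs.

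The rest of the pathway was read from lists of genes outside the symbol rule. Of 5 succinate dehydrogenase (complex II) genes on the array, 3 were tested, and none was called against wild type. SdhB, the iron-sulfur subunit, read 10.06, 10.03 and 10.13 in lgl discs, against 10.82, 10.93 and 10.70 in scrib discs. The groups lay well apart (1.67-fold, log2 difference -0.74 ± 0.21, adjusted p = 0.025), although the call was lost without any one of the 6 arrays, with adjusted p up to 0.076. Among 8 other nuclear subunits, Cyt-c1, the haem-bearing cytochrome of complex III, read 11.49, 11.54 and 11.54 in lgl brains and 11.46, 11.82 and 11.53 in scrib brains, against 12.09 and 12.21 in wild-type brains. Every mutant brain was below both wild-type brains, with log2 differences of -0.63 ± 0.13 for lgl (adjusted p = 0.0043) and -0.55 ± 0.13 for scrib (0.0059). The only other call of this list against wild type was ox, a small complex III subunit, at -0.73 in scrib brains (adjusted p = 0.036). It was lost without wild-type brain replicate 1, at -0.44 (adjusted p = 0.29), and without scrib brain replicate 1 (0.1) or 3 (0.098).

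A pair of assembly factors of complex II differed far more between the groups. Sirup, the factor known in mammals as SDHAF4, read 10.72, 10.31 and 10.53 in lgl discs, 14.38, 13.65 and 14.34 in scrib discs and 9.99 and 8.96 in wild-type discs. Scrib discs stood far above both other groups, 25.1-fold above wild type (log2 difference 4.65 ± 0.34, adjusted p = 1.6e-06), and lgl discs were 12.1-fold below scrib discs (log2 difference -3.60 ± 0.30, adjusted p = 4.5e-06). Both held under every alternative. In brains Sirup read 11.91, 11.82 and 12.31 in lgl, 12.93, 13.38 and 13.31 in scrib and 12.65 and 11.77 in wild type. Scrib brains were above all others, by 1.0 over wild type (adjusted p = 0.038, and 0.28 without wild-type brain replicate 2), and lgl was lower than scrib by a log2 difference of -1.20 (adjusted p = 0.024, lost without any one of 4 arrays, with adjusted p up to 0.089).

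Sdhaf3, which protects the iron-sulfur subunit during assembly, read 7.45, 7.38 and 7.32 in lgl discs, 8.94, 8.75 and 9.24 in scrib discs and 9.41 and 8.78 in wild-type discs. The lgl discs were apart from both other groups, 3.27-fold below wild type (log2 difference -1.71 ± 0.29, adjusted p = 0.0013) and 3.02-fold below scrib (-1.60, 0.001). Both of these held under every alternative. In brains it read 7.44, 7.27 and 7.96 in lgl, 8.39, 9.12 and 8.40 in scrib and 9.87 and 9.21 in wild type. The 3 groups did not overlap, with a fall of 3.96-fold in lgl (log2 difference -1.99 ± 0.29, adjusted p = 0.00061) and of 1.87-fold in scrib (-0.91, 0.03, and 0.25 without wild-type brain replicate 1). Of 12 assembly factors, all 12 were below 0 for lgl minus scrib in discs and in brains. In each tissue 3 were called lower, against 8.54% of all probe sets in discs and 5.42% in brains. The third beside Sirup and Sdhaf3 was Cox10, which makes haem for complex IV, at -0.37 in discs and -0.42 in brains. The Cox10 calls were lost without any one of 10 arrays in discs (adjusted p up to 0.13) and 11 in brains (up to 0.15), and the brain call of Sdhaf3 without any one of 3 (up to 0.084).

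Among 21 tested carriers, import and biogenesis factors, mtDNA-helicase, which unwinds mitochondrial DNA, rose in all 4 mutant groups. It read 7.85, 7.78 and 7.62 in lgl discs and 8.0, 8.01 and 8.17 in scrib discs, against 6.88 and 7.04 in wild-type discs. In brains it read 8.02, 8.01 and 7.99 in lgl and 8.83, 8.48 and 8.51 in scrib, against 6.65 and 7.09 in wild type. No mutant array overlapped the wild type of its tissue. The rises were 1.73-fold and 2.15-fold in lgl and scrib discs and 2.2-fold and 3.34-fold in lgl and scrib brains (adjusted p 0.004, 0.0004, 0.00043 and 1e-05), and each held under every alternative. PolrMT, the mitochondrial RNA polymerase, rose in brains, by 0.61 in lgl (adjusted p = 0.0067) and 0.93 in scrib (0.00028).

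In the same list the calls against wild type were 2 higher and 1 lower in lgl discs, 1 and 3 in scrib discs, 2 and 5 in lgl brains and 5 and 2 in scrib brains. Of all probe sets 12.0% were called higher and 6.13% lower in lgl discs, and 12.6% and 10.6% in scrib discs. In brains these shares were 14.0% and 11.3% for lgl and 19.7% and 15.1% for scrib. Tim17b, a subunit of the inner membrane import channel, was lower by a log2 difference of -0.53 in lgl discs, -0.56 in scrib discs and -0.57 in scrib brains, and leaving out replicate 1 of the wild-type discs ended the first of these calls, at an adjusted p of 0.053. The lower calls also held sesB, the ADP/ATP carrier, in scrib discs (-0.47, adjusted p = 0.016, lost without any one of 3 arrays at up to 0.063) and porin, the outer membrane channel, in lgl brains (-0.65, 0.0052). TFAM, which packages mitochondrial DNA, read 9.74, 9.59 and 9.69 in lgl discs, against 10.36, 10.44 and 10.49 in scrib discs. The 3 lgl arrays were all lower (1.69-fold, log2 difference -0.76 ± 0.13, adjusted p = 0.0012), and this held under every alternative.

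Of 12 genes of pyruvate dehydrogenase and the TCA cycle, 1 was higher and 2 lower in lgl discs, 1 and 0 in scrib discs, 1 and 5 in lgl brains and 1 and 4 in scrib brains. The shares of all probe sets called higher and lower were 12.0% and 6.13% in lgl discs and 12.6% and 10.6% in scrib discs. For brains they were 14.0% and 11.3% in lgl and 19.7% and 15.1% in scrib. Idh3b, a subunit of the NAD-dependent isocitrate dehydrogenase, read 9.24, 9.10 and 8.86 in lgl brains and 10.39, 10.45 and 10.61 in scrib brains, against 10.96 and 10.59 in wild-type brains. The lgl brains stood well below both (3.28-fold below wild type, log2 difference -1.71 ± 0.19, adjusted p = 8.1e-05, and -1.41 relative to scrib, 0.00016). Of 10 genes of the glycolysis list 5 rose and none fell in scrib discs, among them Tret1-1, a trehalose transporter (log2 difference 2.73, adjusted p = 0.00038), and Pfk, phosphofructokinase (1.35, 0.0025). Tret1-1 is a sugar transporter rather than an enzyme of glycolysis and is also on the list of glia markers. In lgl discs 1 rose, again Tret1-1 (1.56, 0.015, and 0.1 without wild-type disc replicate 1). All 10 lay below 0 in lgl discs relative to scrib discs, without overlap, 6 of them called, with Pfk at -1.56 and Eno, enolase, at -0.79. Of all probe sets 26.7% lay lower there without overlap and 8.54% were called lower. In brains 2 fell in lgl, Hex-A (-1.26), a hexokinase, and Pfk (-0.80), and 1 in scrib, Hex-A (-1.07). Both Hex-A calls were lost without wild-type brain replicate 1 (adjusted p = 0.054 in lgl and 0.067 in scrib), and the Pfk call without any one of 8 arrays (up to 0.15).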

How the data were processed

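The deposited values are log2 signals that the authors made with GCRMA from single-colour Affymetrix Drosophila Genome 2.0 arrays, per the submitters' processing notes. The GCRMA version is not given in the sources used here. Between 40.1% and 43.1% of probe sets reached 4 on an array. The precision is limited by the number of arrays, 16 in all. Of 18952 probe sets, 13647 had 1 gene symbol, 402 several, 4720 none and 183 were controls, which were left out. Genes were picked by their symbol in the platform annotation. Printed names are the RefSeq symbols of the same gene identifiers, or the platform symbol where RefSeq had none.

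The 8819 probe sets at or above 4 on at least 2 arrays were fitted with limma 3.58.1 in R 4.3.3, as 1 model of 6 group means with 10 residual degrees of freedom, eBayes and Benjamini-Hochberg adjustment. Folds are the brighter over the dimmer group, and are lower bounds where an array of the dimmer group was below 4. Detailed values are given for up to 4 called genes in each direction per comparison with the largest difference, the brightest gene of each complex, every L paralogue, and up to 3 genes per pathway list and comparison. ND-PDSW and ND-ACP were named after their values were seen. The genes and lists were chosen with earlier results of these data known.

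Same-numbered arrays of different groups were checked for pairing. The procedure was tested on simulated data, where it recovered 49% to 63% of changes of 1 and 85% to 96% of changes of 2 on the log2 scale over 6 comparisons of 8819 probe sets. Changes were placed in brighter probe sets only, with independent noise equal in all groups. In the data the pooled standard deviation was 0.65 and 0.66 in wild-type discs and brains, against 0.33 to 0.45 in the mutants. The 47 genes differed by -0.99 to 0.67 in these comparisons, so the rates do not cover their differences. Alternatives were other filters, a further normalization, other variance settings, the replicate block, a fit per comparison, other probe sets and leaving out arrays. For a gene with 1 tested probe set, and for all genes of the pathway lists, the setting of other probe sets repeats the main fit and cannot change a call.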

Additional observations from a re-analysis of the deposited data

Results flagged for a closer look

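None of the 47 respiratory chain and ATP synthase genes passed the test for a difference between the tissues in the lgl or scrib effect, but some genes of the surrounding pathway did, by the test of the difference itself. Values are the log2 effect in discs minus that in brains, with its SE and adjusted p from limma. Cyt-c1 differed by 0.66 ± 0.18 for lgl (0.032) and by 0.63 ± 0.18 for scrib (0.043), and both calls were lost without any one of 8 arrays for lgl (adjusted p up to 0.07) and any one of 13 for scrib (up to 0.088). Sirup differed by 3.65 ± 0.48 for scrib (0.0005). Idh3a, a subunit of isocitrate dehydrogenase, differed by 1.02 ± 0.24 for lgl (0.015). Hex-A differed by 1.39 ± 0.37 for lgl (0.026) and by 1.89 ± 0.37 for scrib (0.0065). Pfk differed by 1.45 ± 0.36 for scrib (0.023) and Tret1-1 by 1.97 ± 0.56 for scrib (0.039). The Hex-A call for lgl was lost without any one of 4 arrays and the Pfk call without any one of 3, most with wild-type disc replicate 1 left out (0.091 for Hex-A and 0.073 for Pfk). The Tret1-1 call was lost without any one of 11, most with wild-type brain replicate 1 left out (0.099). The Sirup and Idh3a calls and the Hex-A call for scrib held without each array in turn.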

How the results depend on the processing

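Numbers of the 47 genes called under the other settings were as follows, each with the share of all probe sets called under that setting, and the cause of these shifts was not tested. For lgl minus wild type in discs (2 genes), quantile normalization gave 1 (18.1%), array weights 0 (9.4%), the fit to the groups compared alone 0 (8.89%) and the fit without both wild-type replicate 1 arrays 0 (20.1%). For scrib minus wild type in discs (4), array weights gave 1 (9.98%), the separate fit 1 (9.71%) and no replicate 1 arrays 7 (31.9%). For lgl minus wild type in brains (11), the trended and robust variance gave 17 (26.4%), array weights 0 (2.88%), the separate fit 0 (6.67%) and no replicate 1 arrays 3 (19.5%). For scrib minus wild type in brains (13), no filter gave 8 (14.0%), array weights 0 (8.84%), the separate fit 0 (10.9%) and no replicate 1 arrays 5 (35.2%). For lgl minus scrib in discs (3), no filter gave 1 (7.6%), the trended variance 5 (21.4%), array weights 16 (40.0%), the separate fit 20 (33.9%) and no replicate 1 arrays 10 (35.2%). In brains (0), array weights gave 4 (21.8%) and no replicate 1 arrays 5 (24.6%).

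Between discs and brains, the lgl comparison (2) gave 1 with a filter at 6 (45.9%), 8 with array weights (61.0%), 6 with the separate fit (57.8%) and 6 without the replicate 1 arrays (56.9%). The scrib comparison (3) gave 6 (55.1%), 6 (51.1%) and 9 (58.5%) under the last 3 of these settings. The wild-type comparison (6) gave 0 with array weights (20.9%) and with the separate fit (16.2%).

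Leaving out each array in turn gave 0 to 4 calls for lgl and 2 to 7 for scrib against wild type in discs, 3 to 30 and 2 to 22 in brains, 0 to 5 and 0 to 2 for lgl minus scrib in discs and brains, 2 to 3, 2 to 5 and 0 to 20 between discs and brains of lgl, scrib and wild type, and 0 to 3 and 0 to 5 for the difference between the lgl and scrib effects of the tissues. The medians moved between -0.47 and -0.06 and between -0.19 and 0.2 in discs, and between -0.67 and -0.26 and between -0.53 and -0.1 in brains, for lgl and scrib minus wild type. For lgl minus scrib they stayed between -0.28 and -0.2 in discs and between -0.26 and -0.09 in brains. Leaving out a wild-type array leaves 1, which is assumed to vary like the other groups. The share of all probe sets called also moved between these fits, so the ranges of counts are not read as results about the genes.

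The replicate block, with the replicate number as a term, gave 0 and 3 calls for lgl and scrib minus wild type in discs, 12 each in brains, and 2 and 0 for lgl minus scrib in discs and brains. For wild type the block gave 6 calls between discs and brains. These counts stand without the share of all probe sets called under the block, so they are not read as results about the genes. Over 36 same-numbered pairs the correlation of deviations ranged between -0.17 and 0.43 with a median of 0.04, and 6 exceeded 0.1, so the numbers did not pair the samples as a whole. The highest, 0.43, was that of the wild-type disc and brain arrays, whose replicates deviated together. Of 142 called differences of named genes, 36 were called under every setting run for them. Over the 3829 values from other settings, 3225 kept the call, 604 lost it and 0 reversed. The kept calls include values that could not change, because the setting of other probe sets repeats the main fit for most of these genes. In comparisons of 2 groups most arrays left out belonged to other groups and acted mainly through the shared estimate of spread. The kept share is therefore not a measure of how firm the calls were. The number of arrays, 2 to 3 in a group, limits the precision.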

Other observations

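Genes of the surrounding pathway also differed between discs and brains. The gene ewg, which encodes a transcription factor related to mammalian NRF1, was lower in discs than in brains by 11.9-fold among lgl, 21.4-fold among scrib and 25.3-fold among wild-type samples (adjusted p 2.8e-06, 2.4e-07 and 1e-06, limma). It was also higher in lgl discs than in wild-type discs, by 1.46 ± 0.38 on the log2 scale (adjusted p = 0.017), and than in scrib discs, by 1.27 ± 0.34 (0.02). The first of these calls was lost without wild-type disc replicate 1, at 0.85 (adjusted p = 0.22), or lgl disc replicate 2 (0.064), and the second without any one of 3 arrays (up to 0.087). The summed signal of 15 neuron markers was likewise lower in discs than in brains in each genotype. In wild type it was 9.66 and 8.58 in discs, against 14.44 and 14.27 in brains (log2). The part of neurons in the ewg differences was not tested. Hsp60A, the mitochondrial chaperonin, was higher in discs than in brains in each genotype, with log2 differences of 0.76 (lgl), 0.93 (scrib) and 1.09 (wild type). Sirup was lower in discs than in brains in lgl (log2 difference -1.49, adjusted p = 0.0014) and wild type (-2.74, 5e-05) and higher in scrib (0.91, 0.026, lost without scrib disc replicate 1 at 0.091 or 3 at 0.087, or scrib brain replicate 1 at 0.095).

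Replicates of other groups also differed in level across the 47 genes. In scrib brains, replicate 2 was above replicate 1 for 45 and above replicate 3 for 43 of them. In lgl brains, replicate 3 was above replicate 1 for 40 and above replicate 2 for 36. In scrib discs, replicate 3 was above replicate 1 for 34 and above replicate 2 for 37.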
